A study of Mus with 8 samples.

Results

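The 38 genes described here belong to the transcriptional response to low oxygen and to glycolysis, the pathway that turns glucose into pyruvate and lactate. They are 20 genes of glycolysis and its transporters, 4 genes of oxygen sensing and of the hypoxia-inducible factors (HIF), and 14 other genes known as HIF targets. A gene was taken when the RefSeq accession of an array probe mapped to it. All 38 were found, and they are 38 of the 16068 genes tested on these arrays. The RNA came from 8 subcutaneous tumours grown from Pan02 cells, a mouse pancreatic cancer line, in hosts described as B6. Control hosts were wild type (4 tumours). Mutant hosts were Ext1 flox/flox; S100a4-Cre (4 tumours), so that Cre recombinase made under S100a4 control can remove Ext1, which encodes an enzyme that lengthens heparan sulfate chains. Every tumour was removed 36 to 40 days after transplantation, and whole-tumour RNA was hybridised to a Cy3 array. S100a4 is expressed by fibroblasts and also by other stromal and immune cells, and the transplanted cancer cells carry no floxed allele, which limits what the Mutant hosts model. Levels are given as log2 of the signal over the 75th percentile of its array, and differences are Mutant minus Control on that scale. The comparison asks how these genes differ between tumours when host cells of the S100a4 lineage lose Ext1.

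When oxygen is plentiful, prolyl hydroxylases of the EGLN family mark the HIF alpha subunits, HIF-1 alpha and HIF-2 alpha, for destruction through the VHL protein. When oxygen is scarce the alpha subunits accumulate, pair with ARNT and switch on genes for glucose uptake, glycolysis, mitophagy, collagen hydroxylation and blood vessel growth. Hif1a itself is controlled mostly at the protein level, and Egln1 and Egln3 are targets of the factor they restrain, which makes them a feedback arm. Pancreatic tumours are known as poorly perfused, and glycolysis genes are also high in proliferating cancer cells for reasons other than oxygen.

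An array had 61.5% to 67.2% of its 56605 probes well above background and no saturated spot. All arrays lay on 1 slide with 1 scan time, in 2 rows that each held 2 tumours of either group. Ext1 differed by 0.07 ± 0.36 (standard error, as after each difference given so; two-sided exact permutation p = 0.943), a difference that turned to -0.28 without Control 4 and to -0.02 without Mutant 3. S100a4 differed by 0.24 (two-sided exact permutation p = 0.486), and by 0.0545 without Control 2 to 0.41 without Mutant 4. Neither checks the labels, since the exon that the Ext1 probe detects is not given here and the cancer cells keep Ext1. The epithelial keratins Krt8 and Krt18 were well above background in every tumour, but Epcam, an epithelial adhesion gene, was not on any array. In bulk tumours fewer cells of a type and less RNA per cell cannot be told apart.

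Hypoxia and glycolysis genes read lower in tumours of Mutant hosts almost throughout. The difference was below 0 for 36 of 38 genes (94.7%), and it was below 0 for 47.6% of all genes tested. The 38 were chosen with earlier results of these data known and were read in the same 8 tumours. Their counts beside those of all genes are therefore a description and no test. The median difference was -0.37, or 0.772-fold, where the median of all genes was 0.01. At least 1.5-fold lower were 11 of 38 (28.9%), and 1.98% of all genes. After Benjamini-Hochberg adjustment no gene of the array passed (0.0% of 16068), and limma's adjusted p was 1 for each of the 38. At an unadjusted limma p under 0.05, 8 of 38 were lower and 0 were higher, where 1.03% of all genes were lower and 1.87% higher. These 8 were Ankrd37, Bnip3, Adm, P4ha2, P4ha1, Mxi1, Egln1 and Kdm3a. All 38 genes were well above background on all 8 arrays, so none owes its place to a filter on dim probes.

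Medians were read for each of the 3 roles. The other HIF targets had a median difference of -0.60 with 14 of 14 below 0, the glycolysis genes -0.28 with 19 of 20, and the sensing genes -0.28 with 3 of 4. At an unadjusted limma p under 0.05, 7 of the 14 targets, 1 of the 4 sensing genes and 0 of the 20 glycolysis genes were lower. Of all genes, 1.03% were lower at that p. No test of the difference between roles was made. The median of all 38 rests in part on Control 3, without which it was -0.24, and that of the glycolysis genes was then -0.15. The count of 8 was 4 without Mutant 1 and 5 without Control 3, Mutant 2 or Mutant 4. Without Mutant 3 it was 12. The matching share of all genes, 1.03% with no tumour left out, moved as well. It was 0.585%, 1.47%, 0.759%, 0.597% and 1.43%, in the order in which these tumours are named. In 30 of the 38 genes at least 1 left-out tumour moved the difference by over 1.5 times or turned its sign.

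**Figure D1:**
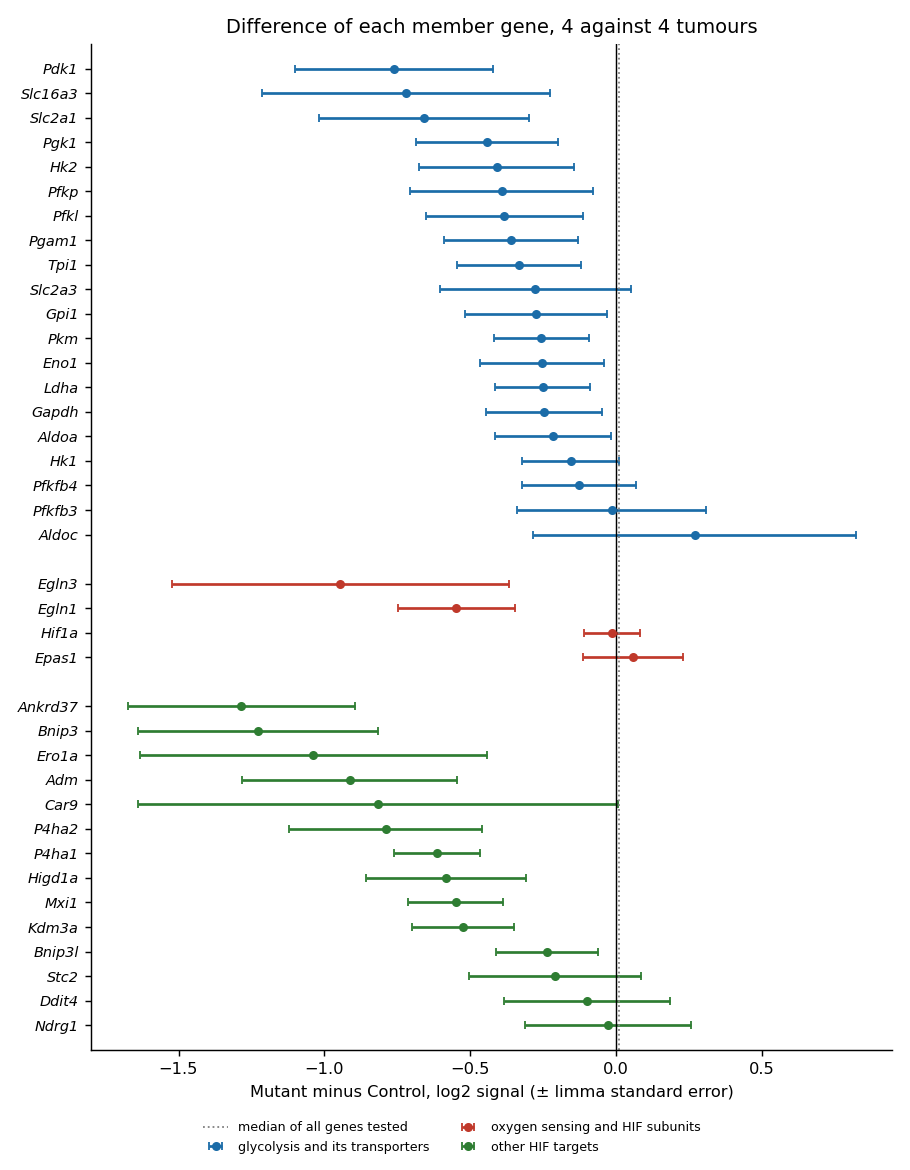
Difference of each of the 38 genes, Mutant minus Control, on the log2 scale (horizontal axis; points are limma estimates from 4 against 4 tumours, bars are ± 1 standard error), grouped by role in colour, with the median of all genes as a dotted line. Ankrd37 lies furthest to the left at -1.29, Aldoc furthest to the right at 0.27, and 36 of 38 points lie below 0.

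The HIF alpha subunits read nearly alike in both groups. Hif1a read 3.53, 3.57, 3.68 and 3.44 for Control 1 to 4, against 3.48, 3.61, 3.56 and 3.51 for Mutant 1 to 4. The tumours of both groups lay within a narrow band, and the difference was -0.01 (95% interval -0.24 to 0.21, two-sided exact permutation p = 0.8), with a sign that turned without Control 3 (0.03). Epas1, which encodes HIF-2 alpha and is known from endothelial and stromal cells, read 3.52, 4.08, 3.43 and 3.5 for Control 1 to 4, against 3.85, 3.5, 3.81 and 3.60 for Mutant 1 to 4. Control 2 was the highest tumour and the other 7 lay between 3.43 and 3.85. The Epas1 difference was 0.06 (95% interval -0.34 to 0.45), and -0.01 without Control 3.

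Of the prolyl hydroxylases that restrain HIF, Egln1 and Egln3 read lower on average in Mutant tumours, and Egln2, at -0.03, hardly differed. Egln1, the main oxygen sensor of most cells, read 4.38, 4.19, 4.76 and 4.01 for Control 1 to 4, against 3.70, 3.61, 4.19 and 3.65 for Mutant 1 to 4. Only Mutant 3 reached the Control range, and the other Mutant tumours lay beneath it. The difference was -0.55 with a standard error of 0.20 (0.684-fold, two-sided exact permutation p = 0.0571; limma adjusted p = 1). Egln3, a hydroxylase strongly induced by HIF, read 2.72, 2.95, 4.17 and 1.95 for Control 1 to 4, against 1.90, 1.61, 3.31 and 1.19 for Mutant 1 to 4. Both groups spread over more than 2 log2 units, from the lowest tumour, Mutant 4, to the highest, Control 3. Its difference was -0.94 ± 0.58 (two-sided exact permutation p = 0.229) and -0.54 without Control 3.

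Among the other HIF targets, P4ha1 and Mxi1 were the 2 genes whose groups did not overlap. That is 2 of 38 (5.26%), where 0.703% of all genes were lower with no overlap, and 0 of 38 were higher with no overlap, where 0.716% of all genes were. P4ha1, a subunit of the enzyme that hydroxylates prolines in collagen, read 0.79, 0.33, 0.88 and 0.76 for Control 1 to 4, against 0.15, -0.13, 0.15 and 0.13 for Mutant 1 to 4. The highest Mutant tumour, at 0.15, lay below the lowest Control tumour, Control 2 at 0.33, and the Mutant tumours differed little among themselves. The difference was -0.61 with a standard error of 0.15 (0.654-fold, two-sided exact permutation p = 0.0286, the smallest that 4 against 4 tumours allow; limma adjusted p = 1). Another P4ha1 probe differed by -0.65. Mxi1, a repressor that opposes MYC, read 3.29, 3.30, 3.32 and 3.18 for Control 1 to 4, against 2.39, 2.81, 3.12 and 2.57 for Mutant 1 to 4. Control tumours lay close together, while the Mutant tumours spread from 2.39 to 3.12. The Mxi1 difference was -0.55 with a standard error of 0.16 (0.683-fold, two-sided exact permutation p = 0.0286; limma adjusted p = 1).

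The widest differences were those of Ankrd37 and Bnip3. Ankrd37, an ankyrin-repeat protein used as a marker of HIF activity, read 1.58, 1.82, 2.30 and 1.5 for Control 1 to 4, against 0.26, -0.13, 1.67 and 0.26 for Mutant 1 to 4. The values of Mutant 1, 2 and 4 were more than 1 log2 unit below the lowest Control tumour, and that of Mutant 3 was among the Control tumours. The difference was -1.29 ± 0.39 (standard error; 4 against 4 tumours), or 0.410-fold (two-sided exact permutation p = 0.0857; limma adjusted p = 1). Bnip3, a mitophagy receptor that clears mitochondria, read 4.87, 4.74, 5.72 and 4.75 for Control 1 to 4, against 3.28, 3.95, 4.84 and 3.09 for Mutant 1 to 4. The same 3 Mutant tumours lay below all Control tumours, with Mutant 3 inside the Control range and Control 3 the highest of all. Bnip3 differed by -1.23 ± 0.41, or 0.427-fold (two-sided exact permutation p = 0.0857; limma adjusted p = 1). Bnip3l, its relative with the same task, differed by -0.24 ± 0.18, or -0.125 without Control 3, and its groups overlapped.

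Kdm3a, a histone demethylase, read 2.78, 2.60, 2.53 and 2.48 for Control 1 to 4, against 1.72, 2.11, 2.50 and 1.95 for Mutant 1 to 4. Mutant 3 alone reached the Control tumours, just above Control 4. The difference was -0.53 ± 0.17 (two-sided exact permutation p = 0.0571; limma adjusted p = 1). P4ha2, an alternative catalytic subunit to P4ha1 in collagen prolyl hydroxylases, read 2.98, 3.03, 3.51 and 4.29 for Control 1 to 4, against 2.29, 2.74, 3.20 and 2.42 for Mutant 1 to 4. Control 4 was the highest tumour and Mutant 1 the lowest, and without Control 4 the difference of -0.79 was -0.51. Adm, the vasodilator peptide adrenomedullin, read -0.77, 0.21, -0.07 and 0.38 for Control 1 to 4, against -1.37, -1.15, -0.02 and -1.37 for Mutant 1 to 4. Control 1 was the low Control tumour and Mutant 3 the high Mutant tumour, and the difference was -0.91 ± 0.37 (two-sided exact permutation p = 0.0857; limma adjusted p = 1).

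**Figure D2:**
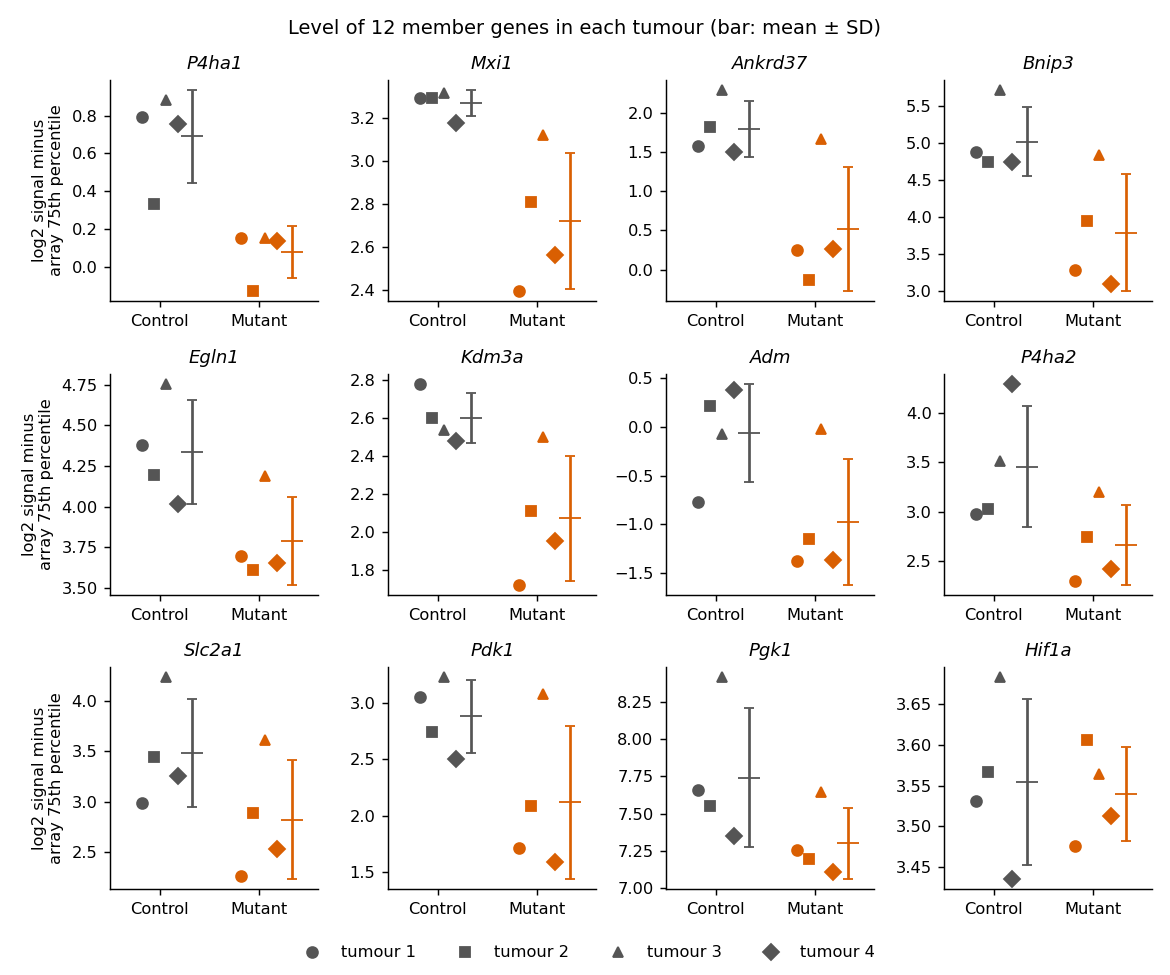
Level of 12 of the genes in each tumour. Vertical axes give log2 signal minus the array's 75th percentile, with a separate range per gene. Marker shapes give the tumour number within its group, which is not known to pair tumours. Bars are group mean ± SD, n = 4. Groups are apart for P4ha1 and Mxi1, and Hif1a shows no separation. Mutant 3 (triangle) is the highest Mutant tumour in all panels except Hif1a and P4ha1. For P4ha1 it is nearly level with Mutant 1, the highest.

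Higd1a, a mitochondrial protein induced by low oxygen, differed by -0.58 ± 0.27, and by -0.32 without Control 3. Ero1a, the oxidase that drives disulfide bond formation in the endoplasmic reticulum, read 3.01, 3.27, 5.51 and 2.78 for Control 1 to 4, against 2.26, 2.61, 3.26 and 2.30 for Mutant 1 to 4. Control 3 stood more than 2 log2 units above every other tumour, and without it the difference of -1.04 was -0.41. Car9, the surface carbonic anhydrase often used to stain hypoxic tumour areas, read 1.11, 3.33, 2.83 and 0.43 for Control 1 to 4, against 0.41, 0.43, 2.99 and 0.59 for Mutant 1 to 4. Control 2, Control 3 and Mutant 3 were high and the other 5 tumours low, so that both groups held tumours of either kind. The Car9 difference was -0.82 ± 0.82 (two-sided exact permutation p = 0.343), -0.35 without Control 2 and -1.45 without Mutant 3.

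The remaining 3 HIF targets had the smallest differences of the 14, with wide intervals. Ndrg1, a stress-induced gene linked to growth arrest, differed by -0.03 (95% interval -0.69 to 0.63), and its sign turned without any of Control 2 (0.09), Control 3 (0.06), Mutant 2 (0.03) or Mutant 4 (0.18), and under quantile normalization (0.04). Ddit4, an inhibitor of mTORC1 signalling that also responds to other stresses, differed by -0.10 (95% interval -0.76 to 0.56). The secreted glycoprotein Stc2, which also responds to endoplasmic reticulum stress, differed by -0.21 (95% interval -0.90 to 0.48). Without Mutant 2, Ddit4 differed by 0.08 and Stc2 by 0.04. For Stc2, Mutant 3 at 0.55 was the highest tumour and Mutant 2 at -0.87 the lowest.

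Of the glycolysis genes, the glucose importer, the gatekeeper of pyruvate and the lactate exporter had the widest differences. Slc2a1, the glucose transporter GLUT1, read 2.99, 3.44, 4.24 and 3.26 for Control 1 to 4, against 2.25, 2.89, 3.62 and 2.53 for Mutant 1 to 4. The tumours Mutant 1, 2 and 4 were below all Control tumours and Mutant 3 above all but Control 3, and the difference was -0.66 ± 0.36 (two-sided exact permutation p = 0.171), or -0.41 without Control 3. Pdk1 encodes a kinase that inhibits pyruvate dehydrogenase. Pdk1 read 3.05, 2.75, 3.23 and 2.50 for Control 1 to 4, against 1.71, 2.09, 3.08 and 1.59 for Mutant 1 to 4. The same 3 Mutant tumours were low, and Mutant 3 lay above Control 1, 2 and 4. Pdk1 differed by -0.76 ± 0.34 (two-sided exact permutation p = 0.114), and its 3 other probes by -0.75, -1.10 and -0.27. Slc16a3, the lactate exporter MCT4, read 1.76, 1.85, 2.28 and 3.79 for Control 1 to 4, against 1.31, 2.39, 1.98 and 1.12 for Mutant 1 to 4. Control 4 stood apart above the other 7, and without it the difference of -0.72 was -0.27. Slc2a3, the transporter GLUT3, differed by -0.28 ± 0.33, and by 0.02 without Control 4.

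The enzymes from hexokinase to lactate dehydrogenase, Aldoc aside, read lower on average in Mutant tumours, with differences of -0.44 to -0.16. Hk2, the inducible hexokinase that commits glucose to the cell, differed by -0.41 ± 0.27, and Hk1, the constitutive form, by -0.16 ± 0.17. The next step belongs to Gpi1, the glucose-6-phosphate isomerase, at -0.28 ± 0.24. The phosphofructokinase subunits Pfkl and Pfkp, which control flux through the pathway, differed by -0.38 ± 0.27 and -0.39 ± 0.31. Aldoa, which splits the hexose, differed by -0.22 ± 0.20, and Tpi1, the triosephosphate isomerase, by -0.33 ± 0.21.

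In the lower part of the pathway, Pgk1, the kinase of the first ATP-making step, read 7.66, 7.55, 8.42 and 7.35 for Control 1 to 4, against 7.25, 7.20, 7.65 and 7.10 for Mutant 1 to 4. All Mutant tumours except Mutant 3 lay below the Control tumours, and the difference was -0.44 ± 0.24 (two-sided exact permutation p = 0.114). Gapdh, the dehydrogenase before it, differed by -0.25 ± 0.20, and its 5 other probes by -0.30 to -0.22. Pgam1, Eno1 and Pkm, the mutase, enolase and pyruvate kinase that follow, differed by -0.36 ± 0.23, -0.25 ± 0.21 and -0.26 ± 0.16. Ldha, which turns pyruvate into lactate, read 8.10, 7.85, 8.28 and 7.68 for Control 1 to 4, against 7.63, 7.65, 8.0 and 7.62 for Mutant 1 to 4. Mutant 1, 2 and 4 lay close together and just below the lowest Control tumour, Control 4 at 7.68, and the difference was -0.25 ± 0.16. Another, dimmer Ldha probe differed by -0.57. None of these enzymes passed the test over all genes, the standard error of Hk1 was wider than its difference, and those of Aldoa, Gapdh, Gpi1, Eno1 and Pfkp were nearly as wide. Most of them leaned on Control 3: without it Gpi1 differed by -0.06, Hk1 by -0.02, Aldoa by -0.06, Gapdh by -0.07 and Pfkp by -0.10. Glycolysis enzymes have many processed pseudogenes, and whether signals of these are part of the probes' values was not tested.

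Pfkfb3 and Pfkfb4 make and remove the metabolite that activates phosphofructokinase. Pfkfb3 differed by -0.02 ± 0.32, and Control 4, at 2.26, was far above the other Control tumours at 0.83 to 1.06. Without Control 4 the Pfkfb3 difference was 0.31, and it was 0.08 without Mutant 3 and 0.03 without Mutant 4. Pfkfb4 differed by -0.13 ± 0.19, and by 0.0044 without Control 4. Aldoc, the aldolase best known from brain, was the gene on the higher side. It read 3.43, 4.25, 3.59 and 2.70 for Control 1 to 4, against 3.73, 2.58, 5.18 and 3.55 for Mutant 1 to 4. Mutant 3 was the highest and Mutant 2 the lowest of all 8 tumours, and the difference of 0.27 ± 0.55 was -0.20 without Mutant 3. Its other probe differed by 0.32.

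The tumours ranked alike from gene to gene, a description that holds for these 38 genes and these 8 tumours. Control 3 was the highest Control tumour in 25 of 38 genes, and Control 4 the lowest in 25. Mutant 3 was the highest Mutant tumour in 30 of 38, and Mutant 4 was lowest of all 8 tumours in 15. Mutant 1 lay below every Control tumour in 21 of 38 genes, Mutant 2 in 22, Mutant 4 in 25 and Mutant 3 in 2. For the glycolysis genes these counts were 8, 8, 13 and 0 of 20, and for the other HIF targets 11, 12, 10 and 2 of 14, in the order Mutant 1, 2, 4 and 3. For the 54 further genes of the same pathways described below they were 14, 12, 21 and 6 in that order. The share over all genes was not counted, so these counts are not shown to be particular to the 38. After subtraction of each gene's 8-tumour mean, the average over the 38 genes was 0.07, 0.18, 0.58 and 0.04 for Control 1 to 4, against -0.38, -0.33, 0.27 and -0.45 for Mutant 1 to 4. Mutant 3 lay above 3 of the 4 Control tumours on this measure, and the other 3 Mutant tumours lay below all of them. Within the first slide row the median difference of the 38 genes was -0.40 (33 below 0), and within the second, which holds Control 3 and Mutant 3, it was -0.37 (32 below 0). Of all genes, 50.7% and 49.8% were below 0 within these rows.

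**Figure D3:**
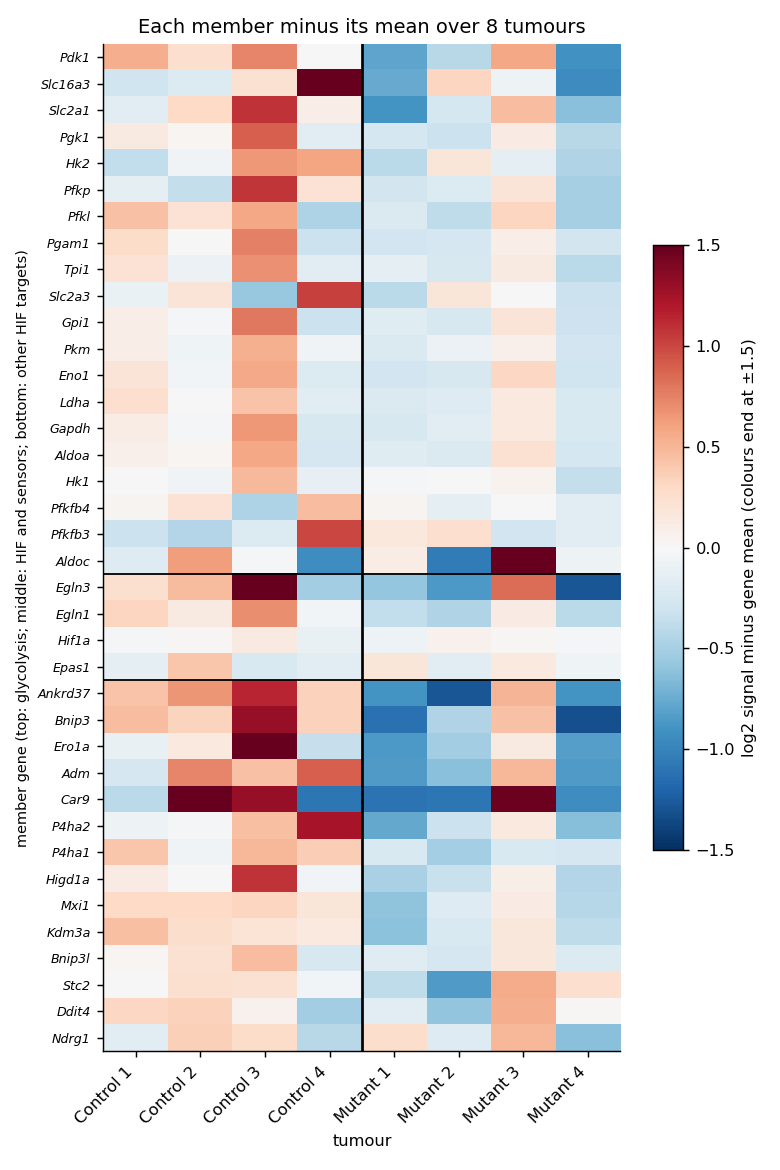
Each gene (rows, grouped by role and ordered by difference) in each tumour (columns, Control left of the line) as log2 signal minus the gene's mean over the 8 tumours, red above and blue below that mean, with colours ending at ±1.5. Mutant 1, 2 and 4 are mostly blue, Control 3 is the reddest column, and Mutant 3 resembles the Control tumours more than the other Mutant tumours.

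Skeletal muscle transcripts differed the opposite way. All 16 muscle markers read higher in Mutant tumours, with 13 of 16 well above background on all arrays, and their median difference was 2.87. On the same measure muscle markers averaged -0.50, 0.40, -1.73 and -3.54 for Control 1 to 4, against 1.85, 2.75, -0.78 and 1.56 for Mutant 1 to 4. More muscle transcript than in any Control tumour was present in Mutant 1, 2 and 4, whereas Mutant 3 was among the Control tumours. Of the Control tumours, Control 4 had the least muscle transcript and the lowest average over the 38 genes, 0.04. Control 3, at -1.73 for muscle, had the highest average over the 38 genes, 0.58. Whether muscle level and hypoxia genes go together within a group was not tested. Among these markers the fast troponin I Tnni2 differed by 1.17 ± 0.50 and skeletal actin Acta1 by 2.05 ± 0.69. With the muscle level as a covariate, the median difference of the 38 genes was -0.19, 32 of 38 were below 0 and 0 were lower at an unadjusted limma p under 0.05. Of all genes, 49.1% were then below 0 and 0.317% lower at that p. Muscle level ran with the group (mean -1.34 in Control, 1.34 in Mutant), which widens the error of every gene in this fit. The fit thus cannot tell muscle level and group fully apart. Under that setting the median was -0.39 for the other HIF targets and -0.15 for the glycolysis genes, and of the 8 genes at an unadjusted p under 0.05 without it, Ankrd37 differed by -0.73, Bnip3 by -0.76, Adm by -0.28, P4ha2 by -0.0474, P4ha1 by -0.41, Mxi1 by -0.43, Egln1 by -0.40 and Kdm3a by -0.42. The Slc2a1 difference was then -0.27.

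Epithelial genes of the cancer cells read lower on average in Mutant tumours as well. All 4 measured epithelial markers were below 0, with a median of -0.57 (-0.0965 within the first slide row and -1.11 within the second). With the muscle covariate that median was -0.0702. Krt8 differed by -0.53 ± 0.22 and Krt18 by -0.47 ± 0.20. The mean epithelial level ran from -0.29 to 1.02 in Control and from -0.61 to -0.06 in Mutant tumours. Control 4, with the highest epithelial level, also had the highest fibroblast level, 1.80. Markers of endothelium (7 genes) had a median difference of 0.18, macrophages (6 genes) 0.05, fibroblasts (8 genes) -0.01, red blood cells (4 genes) 0.70, neutrophils (4 genes) 0.97 and proliferation genes (6 genes) -0.09. Single Control tumours set several of these medians. Without Control 1 the red blood cell median was 0.0394, and without Control 4 the neutrophil median was 0.10, the fibroblast median 0.88 and the epithelial median -0.39. With the muscle covariate the median was -0.0093 for endothelium, 0.07 for macrophages, 0.28 for fibroblasts, 1.19 for red blood cells, -0.10 for neutrophils and -0.23 for proliferation genes. The part of muscle, epithelial or other cell content in the hypoxia gene difference was not tested beyond the muscle covariate.

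**Figure D4:**
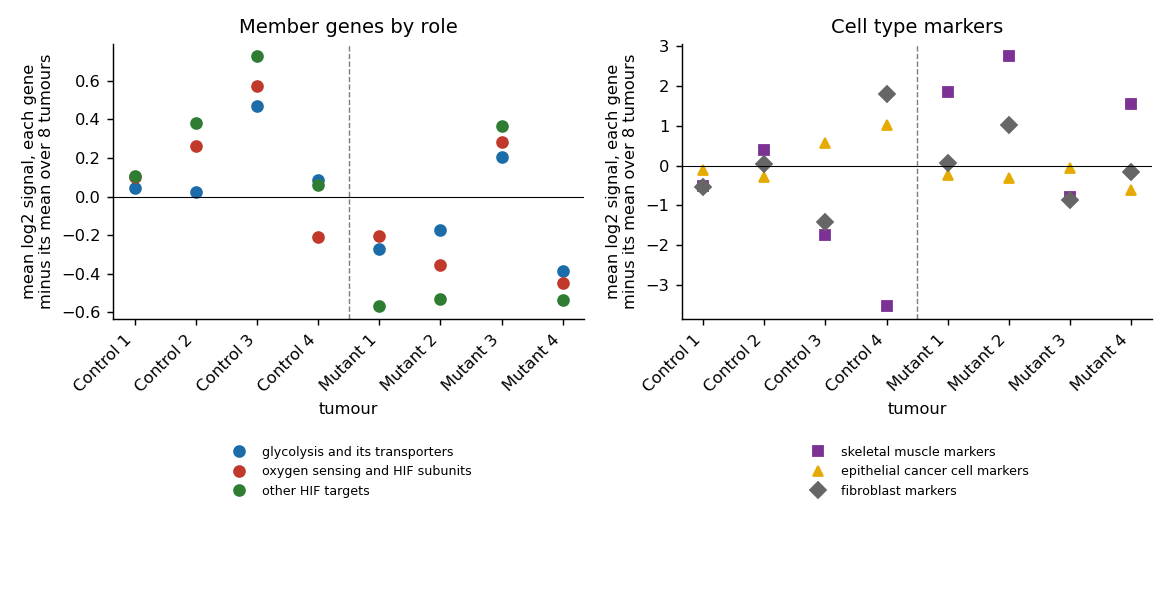
Mean level per tumour (vertical axes: mean log2 signal of a gene list, each gene minus its mean over 8 tumours; the panels differ in range) for the 3 roles of hypoxia and glycolysis genes on the left and for 3 lists of cell type markers on the right. In Mutant 1, 2 and 4 all 3 roles lie below 0 and muscle markers lie above 1.5, while Mutant 3 lies above 0 on the left and at -0.78 for muscle markers on the right.

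Genes of the same pathways outside the 38 read lower in part. These too were listed with earlier results of these data known. Of 59 further HIF targets, regulators and glycolysis genes 54 were measured, 39 of them were below 0 (72.2%, where 47.6% of all genes were) and 15 above, and the median difference was -0.13. Within the first slide row 28 of 54 were below 0, with a median of -0.0054, and with the muscle covariate 30 were, with a median of -0.0375. Of all genes, 50.7% and 49.1% were below 0 under these settings. At an unadjusted limma p under 0.05, 4 of 54 were lower and 2 higher, where 1.03% of all genes were lower and 1.87% higher, and none passed the adjusted test. The 4 lower ones were Bhlhe40, Plod2, Rora and Vegfa. Bhlhe40, a transcriptional repressor of the clock and a HIF target, read 1.06, 1.14, 1.55 and 2.05 for Control 1 to 4, against 0.81, 0.66, 0.96 and 0.80 for Mutant 1 to 4. All Mutant tumours lay below all Control tumours, and the difference was -0.64 ± 0.22 (two-sided exact permutation p = 0.0286; limma adjusted p = 1). Plod2, which hydroxylates lysines of collagen, differed by -0.63 ± 0.22, again with no overlap. Such a separation was seen for 3 of 54 (5.56%), where 0.703% of all genes were lower with no overlap. The third gene was Vhl, with a small difference of -0.13. Without Control 4, Bhlhe40 differed by -0.44 and Plod2 by -0.40, and with the muscle covariate by -0.16 and -0.20. The nuclear receptor Rora differed by -1.61 ± 0.60, and the endothelial growth factor Vegfa by -0.61 ± 0.24. With the muscle covariate Rora differed by -1.64 and Vegfa by -0.43. The 4 lower genes were 1 without Mutant 1, 1 without Mutant 2 and 2 without Mutant 4, and 8 without Mutant 3. Of all genes, 0.585%, 0.759%, 0.597% and 1.43% were lower at that p in these fits in turn.

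On the higher side the further genes of smallest p were Pgam2, the muscle form of phosphoglycerate mutase (2.72 ± 0.95), Pdk4, a pyruvate dehydrogenase kinase typical of muscle and fasting (2.68 ± 0.96), Ppp1r3c, a glycogen-targeting phosphatase subunit (1.86 ± 0.81), and Ldhb, the lactate dehydrogenase subunit of oxidative tissue (0.58 ± 0.32, and 0.36 without either Control 3 or Mutant 1). Pgam2 read -1.23, -0.70, -2.76 and -3.72 for Control 1 to 4, against 1.38, 1.85, -1.84 and 1.06 for Mutant 1 to 4. Mutant 1, 2 and 4 were high, as they were for the muscle markers, and with the muscle level as a covariate Pgam2 differed by 0.22. Under that covariate Pdk4 differed by 1.69, Ppp1r3c by 1.28 and Ldhb by 0.17. Pgam2 and Pdk4 stood at an unadjusted limma p under 0.05, and these 2 genes were 0 without Control 3, Mutant 1 or Mutant 2, 1 without Mutant 4, and 5 genes without Mutant 3. Of all genes, 2.13%, 0.629%, 1.19%, 1.0% and 2.67% were higher at that p in these fits in turn. Pdk4 and Ppp1r3c were each well above background on 3 of 4 Control arrays, so their differences rest in part on signals near background. With normexp background correction Pdk4 differed by 1.18 and Ppp1r3c by 0.55, and without Control 3 Ppp1r3c differed by 1.14. The muscle enolase Eno3, at -0.38 ± 0.29, and Pfkm, the muscle phosphofructokinase, at 0.20 ± 0.19, were chosen after their values were seen. Regulators outside the 38 differed by small amounts, with Vhl at -0.13 (every Mutant tumour below every Control tumour, two-sided exact permutation p = 0.0286; limma adjusted p = 1), Arnt at 0.08, Egln2 at -0.03 and Hif1an at -0.13, and these 4 were chosen after their values were seen as well.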

How the data were processed

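Total RNA (0.5 ug, per the labels' protocols) of 8 tumours was labelled with Cy3. Per the file headers, the intensity values come from Agilent Feature Extraction 10.7.3.1 (the submitters' processing notes name 9.1), and the deposited processed signal is linear, background-subtracted and spatially detrended within the array, with no scaling between arrays. Flag columns the authors deposited carry no unit. Outlier spots (66 to 117 per array) and control spots were left out, spots of a probe averaged, and log2 of the signal centred on the array's 75th percentile (575.9 to 740.7). A probe entered the fit if at least 4 of 8 arrays flagged it as well above background, and a gene was its probe of highest mean. RefSeq accessions named 32994 of 56605 probes through a table of assembly GRCm38.p6. The array design names another build, so no coordinates are given. The deposited value table equals the scanner intensity within 0.01% for 99.488% to 99.511% of probes and served as an alternative.

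Groups were compared with limma 3.58.1 (R 4.3.3, group as the only term, Benjamini-Hochberg adjustment over 16068 genes) and single genes by two-sided exact permutation over 70 arrangements, whose smallest p is 0.0286. Intervals are 95% limma intervals. No depth exists for arrays, and 4 tumours per group limit the precision. The labels do not say that tumours came from separate hosts beyond 4 mice per group, so p-values measure the spread between these tumours. On simulated data with the means and SDs of 16050 genes 47.7% of 2-fold and 80.1% of 4-fold changes were recovered, with 4.79% false among the calls. The simulated noise was normal and independent between genes, whereas the tumours ranked alike from gene to gene. The median standard error was 0.27 for the 38 and 0.19 for all genes, so these rates are not those of the 38. The named genes are the 38, Ext1, S100a4, Vegfa, up to 4 further pathway genes of smallest p in each direction, and the 2 muscle markers of highest mean. The members and lists were chosen with earlier results of these data known. No sequences were printed, and the promoter motif count was not run, because promoter sequences were not used here. Alternatives were normexp (offset 50, on median spot signals), quantile normalization, median centring, other dim-probe filters, probe means, the deposited table, a variance trend, array weights, replicate and slide row blocks, a muscle covariate and leaving out each tumour. Values within slide rows were added after the data were seen. Summaries used Python 3.11.15 (pandas 2.3.3).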

Additional observations from a re-analysis of the deposited data

Results flagged for a closer look

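In the 100 groups of 4 tumours examined for the named genes, 13 held a tumour far from the other 3. The rule picks about 1 in 20 groups of independent normal values. These groups share the same 8 tumours, which ranked alike from gene to gene, so the count is not compared with that rate. Of the 13, 12 concerned the hypoxia and glycolysis genes, which are most of the genes examined. In 6 of the 12 the tumour was Mutant 3, high. Mutant 3 read 6.35 for Pgam1 against 6.0 in the next Mutant tumour, 7.31 for Eno1 against 6.75, 8.0 for Ldha against 7.65 and 4.19 for Egln1 against 3.70. It read 2.99 for Car9 against 0.59 and -0.02 for Adm against -1.15. Control 3 was high for Bnip3, at 5.72 against 4.87 in the next Control tumour, and for Higd1a, at 6.47 against 5.49. Control 4 was high for Pfkfb3, at 2.26 against 1.06, and low for Mxi1, at 3.18 against 3.29. Control 2 was high for Epas1, at 4.08 against 3.52. Mutant 2 was low for P4ha1, at -0.13 against 0.13, and Mutant 4 low for S100a4, at 7.90 against 8.56.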

How the results depend on the processing

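Over 22 alternative settings, 24 of the 38 hypoxia and glycolysis genes kept the sign of their difference and 14 changed it at least once. The median difference of the 38 stayed below 0 in all 22, between -0.44 and -0.19, and no gene of the array passed at an adjusted p under 0.05 in any. The count of 8 genes lower at an unadjusted limma p under 0.05 was 16 with array weights and 0 with the muscle covariate, 13 within slide row 1 and 2 within slide row 2, and 4 to 12 with a tumour left out. The share of all genes lower at that p moved too, from 1.03% to 3.24% with array weights, 0.317% with the muscle covariate, 3.72% within slide row 1 and 1.5% within slide row 2. With a tumour left out, 0.585% to 2.78% of all genes were lower and 0.629% to 3.27% higher. For the further genes the 4 lower were 8 with array weights and 0 with the muscle covariate (1 to 8 with a tumour left out). The 2 higher were 1 with the filter on all 8 arrays, 0 with the muscle covariate, 8 within slide row 1 and 0 within slide row 2 (0 to 5 with a tumour left out), where 1.87% of all genes were higher, or 1.62%, 0.672%, 8.18% and 2.36% under these settings in turn. Same-numbered tumours were not treated as pairs in the main fit. Their deviations correlated at 0.08, -0.31, 0.05 and -0.31 over genes. No Control tumour correlated best with the Mutant tumour of its own number. These correlations cannot exclude a pairing, since differences in tumour content enter them too. With the replicate block 13 of the 38 were lower at an unadjusted limma p under 0.05, and 4 further genes were higher, where 0.753% of all genes were lower and 1.56% higher.

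Signs turned as follows. With the muscle covariate Slc2a3 differed by 0.0331, Pfkp by 0.0526, Pfkfb3 by 0.35, Slc16a3 by 0.0535, Epas1 by -0.0427, Stc2 by 0.15 and Ext1 by -0.30. Within slide row 1 Hk1 differed by 0.0166, Hk2 by 0.10, Pfkp by 0.0087, Pfkfb3 by 0.59, Aldoc by -0.68, Slc16a3 by 0.041, Epas1 by -0.13 and Ext1 by -0.36. Within slide row 2 Car9 differed by 0.16, Ndrg1 by 0.0088, Ddit4 by 0.51, Stc2 by 0.31 and S100a4 by -0.43. With array weights Pfkfb3 differed by 0.26, Aldoc by -0.036 and Ext1 by -0.10, with normexp Hif1a by 0.0054, and with quantile normalization Ndrg1 by 0.036. With a tumour left out, Slc2a3 ranged from -0.51 to 0.0183, Pfkfb3 from -0.16 to 0.31, Pfkfb4 from -0.30 to 0.0044, Aldoc from -0.20 to 0.66, Hif1a from -0.0542 to 0.0282, Epas1 from -0.0111 to 0.21, Ndrg1 from -0.20 to 0.18, Ddit4 from -0.30 to 0.0825, Stc2 from -0.43 to 0.039 and Ext1 from -0.28 to 0.26. The cause of these turns was not tested.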
